A study of Mus musculus with 8 samples.

Results

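The small leucine-rich proteoglycans decorin (Dcn), biglycan (Bgn), asporin (Aspn), lumican (Lum), fibromodulin (Fmod), prolargin (Prelp), osteomodulin (Omd) and osteoglycin (Ogn), together with the large proteoglycan versican (Vcan), were examined in mouse undifferentiated pleomorphic sarcoma (UPS), a soft tissue sarcoma. They were taken by gene symbol from the raw counts, where all 9 were found among 26667 genes, by a rule that uses no measured value. UPS was induced in mice of mixed 129/C57BL/6 background, male and female and at least 8 weeks old, by injecting the calf (gastrocnemius) muscle with Ad-Cre, an adenovirus that carries the Cre recombinase. The 4 KP tumours (KP 5 to KP 8, labelled wild type) carried the alleles of the KP strain, Trp53 fl/fl among them, and the 4 KPH2 tumours (KPH2 1 to KPH2 4) carried the same alleles and Epas1 fl/fl. Epas1 encodes the hypoxia-inducible transcription factor subunit HIF-2α, and the comparison asks which transcripts differ when it is deleted in the tumour. Ad-Cre recombines only the cells it infects, so uninfected stromal and immune cells of a KPH2 tumour keep Epas1. Tumours were collected 7 weeks after injection or at the largest size allowed. RNA came from formalin-fixed, paraffin-embedded tissue, with 1 library per tumour. The study set aside 1 knockout tumour for technical reasons, and KPH2 1 is missing from the authors' normalized values for 7 tumours. Its values are therefore given apart, and tests were run on 7 tumours and repeated on all 8.

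Small leucine-rich proteoglycans are secreted proteins with a core of leucine-rich repeats, several of which carry chondroitin, dermatan or keratan sulfate chains. They bind collagen and govern the assembly and spacing of its fibrils, and they also bind growth factors and receptors at the cell surface. Fibroblasts and other connective tissue cells are their main source. Versican is a much larger chondroitin sulfate proteoglycan that binds hyaluronan and is known for the loose, provisional matrix of wounds and tumours. Dcn, Bgn and Aspn form class I of the small leucine-rich family by sequence, Lum, Fmod, Prelp and Omd belong to class II and Ogn to class III.

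As HIF-2α is a DNA-binding factor, the start regions of the genes were searched for the core of its recognition element, ACGTG or GCGTG on either strand. The RefSeq promoter sequences (GRCm38.p6, from 250 bases before to 50 after the start) had an entry for 7 of the 9 genes, all but Dcn and Lum. The core occurred in 3 of the 7, against 43.8% of all 32851 promoters of the same length, and the 6-base E-box CACGTG, which contains one of the cores, was in none of the 7 and in 7.15% of all. The promoters holding a core are printed 5′ to 3′ on the strand of the gene, with the core in capitals, since it is the element the deleted factor recognises. They are Bgn (chrX:73483351-73483650, plus strand), Aspn (chr13:49544193-49544492, plus strand) and Prelp (chr1:133921352-133921651, minus strand).
Bgn: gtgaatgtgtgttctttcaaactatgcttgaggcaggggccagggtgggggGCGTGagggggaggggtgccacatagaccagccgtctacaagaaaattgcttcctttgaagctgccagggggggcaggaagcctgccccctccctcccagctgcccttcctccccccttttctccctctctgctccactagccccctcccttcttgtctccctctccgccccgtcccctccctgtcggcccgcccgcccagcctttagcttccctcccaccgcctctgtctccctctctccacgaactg
Aspn: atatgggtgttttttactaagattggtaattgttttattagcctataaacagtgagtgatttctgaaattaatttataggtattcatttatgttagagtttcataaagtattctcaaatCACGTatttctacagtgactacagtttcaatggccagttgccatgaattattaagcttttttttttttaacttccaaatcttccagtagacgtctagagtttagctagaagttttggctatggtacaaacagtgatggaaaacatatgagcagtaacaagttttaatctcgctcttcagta
Prelp: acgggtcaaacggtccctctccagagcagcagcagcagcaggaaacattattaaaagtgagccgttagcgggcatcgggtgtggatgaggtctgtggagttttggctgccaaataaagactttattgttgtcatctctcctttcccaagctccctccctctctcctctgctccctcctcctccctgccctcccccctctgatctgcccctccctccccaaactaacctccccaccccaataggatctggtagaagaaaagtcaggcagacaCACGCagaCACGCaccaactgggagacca
In Bgn the core GCGTG began 199 bases upstream of the start, on the strand of the gene. In Aspn and Prelp the core lay on the opposite strand, so the capitals read CACGT in Aspn, 131 bases upstream, and CACGC in Prelp, at bases 21 and 29 after the start. The start used for Prelp is that of its promoter entry, which lies inside the gene span printed below and not at its outer end. A match of these letters is a description of the sequence, and binding was not measured.

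The libraries held 6463221 to 13155510 counts. The ribosomal precursor Rn45s took 1.08% to 2.79% of counts in KP, 3.58% to 9.83% in KPH2 2 to 4 and 6.71% in KPH2 1. The deleted gene, Epas1, was read at 59.2, 83.2, 86.9 and 84.1 CPM (counts per 1e+06 counts, on library sizes scaled by the TMM method) in KP 5, 6, 7 and 8, at 53.4, 37.7 and 42.5 CPM in KPH2 2, 3 and 4, and at 32.6 CPM in KPH2 1. Every KPH2 tumour lay below every KP tumour, and the log2 fold change over 7 tumours was −0.81 ± 0.19 (SE, edgeR adjusted p = 0.0742), or −0.91 over all 8 (adjusted p = 0.117). It passed by DESeq2 (−0.81, adjusted p = 0.0115) and by edgeR without KP 5 (−0.92, adjusted p = 0.0442). Markers of mesenchymal tumour cells (Vim, Prrx1, Twist1, Pdgfra and Pdgfrb) summed to 2859 to 5321 CPM in the 8 tumours. The cartilage and bone list summed to 122 to 237 CPM, with Sp7, Ibsp, Bglap and Col9a1 under 1 CPM in every tumour. Endothelial markers summed to 247 to 517 CPM in KP, 264 to 271 in KPH2 2 to 4 and 192 in KPH2 1. Adipocyte (12.1 to 43.1 CPM), keratinocyte (2.32 to 6.71 CPM) and Schwann cell markers (19 to 30.7 CPM) were low in all 8.

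Over the 7 tumours, 8 of the 9 proteoglycan genes had a fold change below 0 in KPH2, as had 52% of all 14867 genes tested, and Vcan alone was above 0. None of the 9 passed edgeR's quasi-likelihood test at an adjusted p of 0.05, where 1.96% of all genes did (1.24% higher and 0.72% lower in KPH2), while 3 (Dcn, Bgn and Lum) had an unadjusted p under 0.05, each lower in KPH2, against 17.8% of all genes in either direction and 9.26% in the lower one. The median log2 fold change of the 9 was −0.67, beside −0.02 for all genes. DESeq2, which called 7.2% of the genes it tested (3.43% lower in KPH2), called 2 of the 9, Dcn and Bgn. With KPH2 1 included edgeR called none of the 9 (0.00675% of all genes). The same 3 genes then had an unadjusted p under 0.05 (8.02% of all genes, counted in the lower direction), and the median was −0.33 beside 0.01. In bulk RNA, fewer cells that express a gene and less RNA per cell cannot be told apart.

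**Figure D1:**
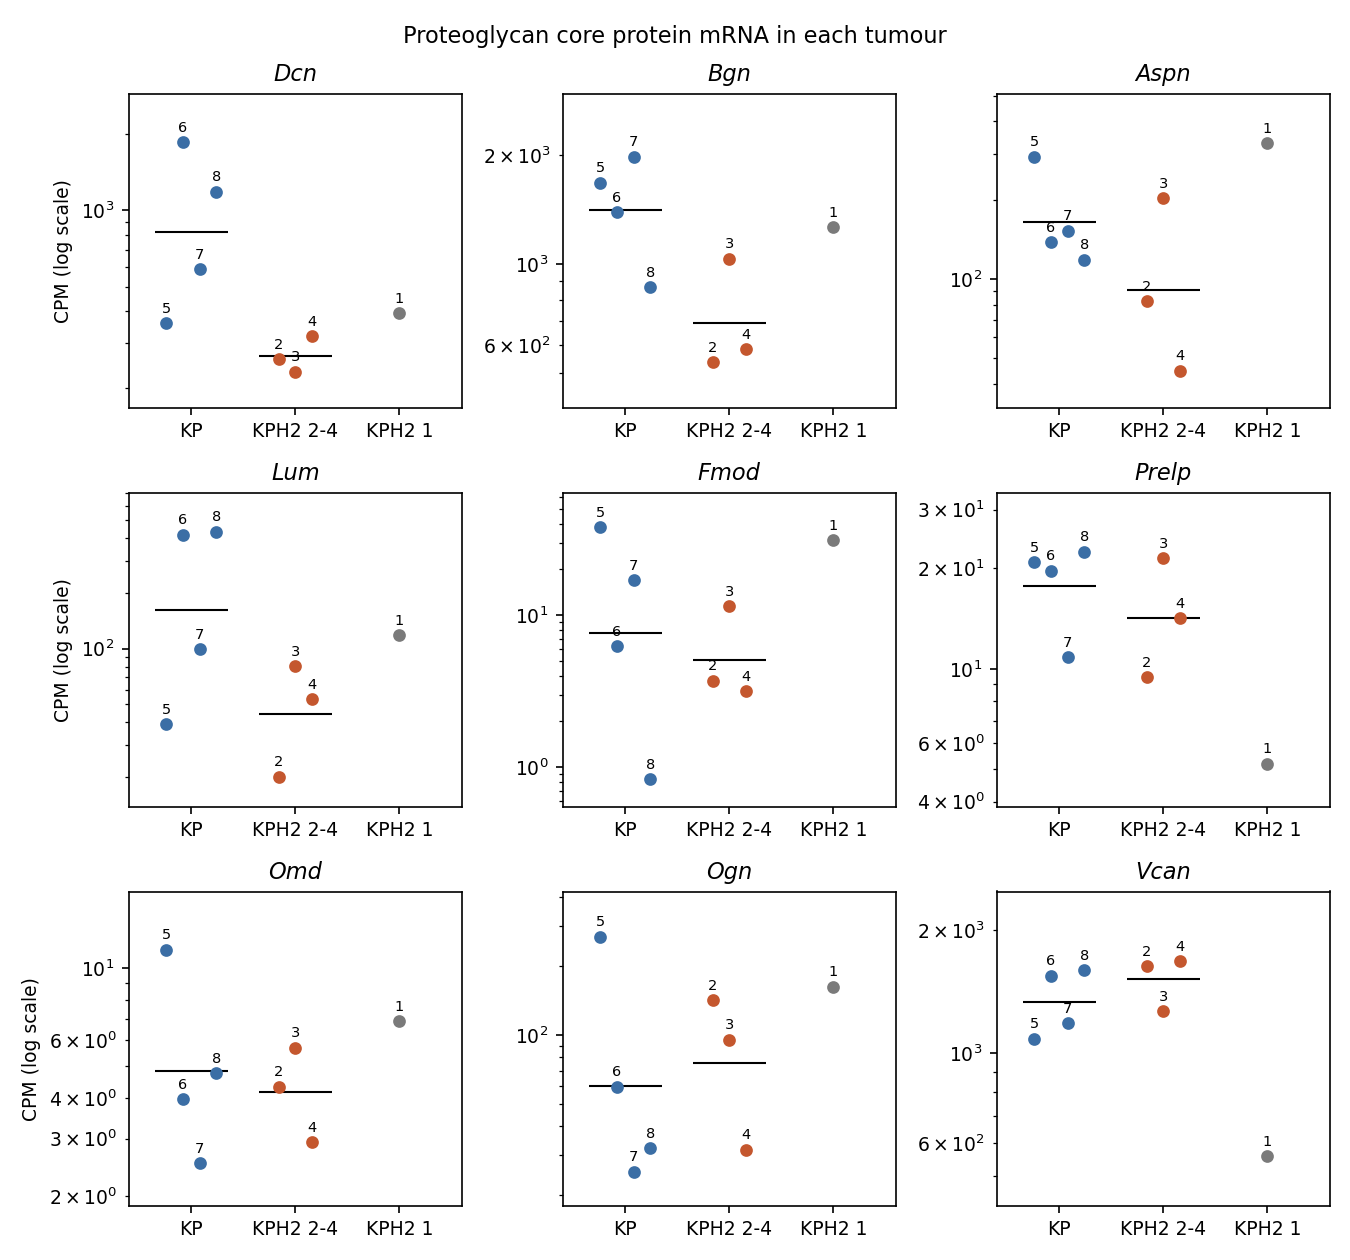
Level of each proteoglycan gene in CPM (log axis) in each tumour, numbered by replicate, with KPH2 1 apart in grey and lines at the geometric mean of each group. Dcn is the gene whose 3 KPH2 tumours (231 to 320 CPM) all sit below the 4 KP tumours (359 to 1863 CPM), while the other 8 overlap.

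Dcn (Entrez Gene 13179, chromosome 10, 97479500 to 97518163) encodes decorin, which coats collagen fibrils and binds TGF-β and receptor tyrosine kinases. It was read at 359, 1863, 587 and 1185 CPM in KP 5, 6, 7 and 8, at 259, 231 and 320 CPM in KPH2 2, 3 and 4, and at 394 CPM in KPH2 1. The KP tumours spread 5.19-fold and the 3 KPH2 tumours 1.38-fold, all 3 of them below the lowest KP tumour, as held for 8.15% of all genes (16.9% had groups apart in either direction). KPH2 1 lay above KP 5, so the groups overlapped once it was included. The KP mean of 999 ± 674 CPM (SD, n = 4) compared with 270 ± 45.2 CPM (SD, n = 3) for KPH2. The fit gave a 3.71-fold difference, a log2 fold change of −1.89 ± 0.53 (SE), that did not pass (edgeR adjusted p = 0.122). It passed by DESeq2 (adjusted p = 0.00241) and by edgeR without KP 5, the KP tumour lowest in Dcn, where the log2 fold change was −2.16 (adjusted p = 0.0466). Over all 8 tumours it was −1.73 (edgeR adjusted p = 0.182).

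Bgn (Entrez Gene 12111, chromosome X, 73483601 to 73495936) encodes biglycan, a close relative of decorin that can signal through Toll-like receptors when released from the matrix. Its values were 1684, 1393, 1985 and 864 CPM in KP 5, 6, 7 and 8, then 537, 1038 and 584 CPM in KPH2 2, 3 and 4, with 1266 CPM in KPH2 1. KPH2 3 lay above KP 8, and the remaining KP tumours were above all 3 KPH2 tumours. The means were 1482 ± 477 CPM (SD, n = 4) and 719 ± 277 CPM (SD, n = 3), with a log2 fold change of −1.04 ± 0.34 (SE, edgeR adjusted p = 0.16). The difference passed by DESeq2 (adjusted p = 0.0363) and was smaller by edgeR with KPH2 1 included, at −0.79 (adjusted p = 0.333).

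Aspn (Entrez Gene 66695, chromosome 13, 49544443 to 49567565) encodes asporin, which competes with decorin for collagen and carries a run of aspartates in place of glycosaminoglycan chains. It stood at 294, 138, 153 and 119 CPM in KP 5, 6, 7 and 8, at 82.5, 204 and 44.7 CPM in KPH2 2, 3 and 4, and highest of all at 331 CPM in KPH2 1. KPH2 3 exceeded 3 of the 4 KP tumours. The log2 fold change of −0.67 ± 0.52 (SE, edgeR adjusted p = 0.559) went to −0.09 (adjusted p = 0.963) with KPH2 1 and to −1.47 (adjusted p = 0.187) without KPH2 3. It was −0.30 without KP 5 and also without KPH2 4 (edgeR adjusted p = 0.799 and 0.852). The 3 class I genes thus had their highest values in different tumours: KP 6 for Dcn, KP 7 for Bgn and KPH2 1 for Aspn.

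Lum (Entrez Gene 17022, chromosome 10, 97565501 to 97572703) encodes lumican, a keratan sulfate proteoglycan needed for regular collagen spacing in the cornea and skin. It ranged more widely than any other abundant proteoglycan gene here, at 39, 418, 99 and 433 CPM in KP 5, 6, 7 and 8, at 20.2, 80.1 and 53.3 CPM in KPH2 2, 3 and 4, and at 119 CPM in KPH2 1. KP 6 and KP 8 stood above every other tumour, but KP 5 lay below 2 of the 3 KPH2 tumours. KP tumours averaged 247 ± 207 CPM (SD, n = 4) and the KPH2 tumours 51.2 ± 30 CPM (SD, n = 3). The fitted difference was 4.84-fold, a log2 fold change of −2.27 ± 0.87 (SE), the largest of the 9 with the second largest error, and did not pass (edgeR adjusted p = 0.225, and 0.138 by DESeq2). With KPH2 1 it was −1.86 (edgeR adjusted p = 0.323).

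Fmod (Entrez Gene 14264, chromosome 1, 134037254 to 134048280), which encodes the tendon and cartilage proteoglycan fibromodulin, had the widest span of the 9. Its values were 37.9, 6.23, 17.1 and 0.83 CPM in KP 5, 6, 7 and 8, the last of them from 11 counts, and 3.69, 11.4 and 3.16 CPM in KPH2 2, 3 and 4, with 31.2 CPM in KPH2 1. The 45.6-fold span within KP covered all KPH2 tumours, and the log2 fold change of −1.35 ± 1.04 (SE, edgeR adjusted p = 0.555) went to −0.33 (adjusted p = 0.915) over all 8. Single tumours moved it in both directions, to −2.18 without KPH2 3 (edgeR adjusted p = 0.48) and to −0.36 without KP 5 (adjusted p = 0.883).

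Prelp (Entrez Gene 116847, chromosome 1, 133910304 to 133930102, minus strand), whose product is thought to anchor basement membranes to connective tissue, was read at 20.9, 19.7, 10.8 and 22.4 CPM in KP 5, 6, 7 and 8. In KPH2 2, 3 and 4 it was read at 9.45, 21.4 and 14.2 CPM and in KPH2 1 at 5.2 CPM, the lowest of all. The groups overlapped (log2 fold change −0.30 ± 0.34 SE, edgeR adjusted p = 0.692). The value was −0.05 without KPH2 2, −0.65 without KPH2 3 and −0.56 with KPH2 1 (adjusted p = 0.565). Its exons overlap 350 bases of the opposite-strand gene Gm15851, and the strand setting of the counting is not given in the sources used here.

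Omd (Entrez Gene 27047, chromosome 13, 49582462 to 49592612) encodes osteomodulin, a keratan sulfate proteoglycan of mineralising tissue. It was low in every tumour, at 11.4, 3.96, 2.52 and 4.75 CPM in KP 5, 6, 7 and 8, at 4.32, 5.7 and 2.93 CPM in KPH2 2, 3 and 4 and at 6.87 CPM in KPH2 1. The log2 fold change was −0.41 ± 0.51 (SE, edgeR adjusted p = 0.735), and it was above 0 (0.20) without KP 5, the tumour with the highest value, and −0.65 without KPH2 3. With KPH2 1 it was −0.20 (edgeR adjusted p = 0.884).

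Ogn (Entrez Gene 18295, chromosome 13, 49608015 to 49624501) encodes osteoglycin, also called mimecan, a class III member that acts in collagen fibril growth. Its values were 269, 59.7, 25.4 and 32.2 CPM in KP 5, 6, 7 and 8, with 142, 95.5 and 31.7 CPM in KPH2 2, 3 and 4, and 163 CPM in KPH2 1. KP 5 alone lay above the KPH2 tumours, and the other KP tumours were below KPH2 1, KPH2 2 and KPH2 3. The log2 fold change was −0.11 ± 0.86 (SE, edgeR adjusted p = 0.965). It turned to 1.21 without KP 5 (adjusted p = 0.293), to 0.30 without KPH2 4 and to 0.16 with KPH2 1 added. It was −0.61 without KPH2 2 and −2.39 ± 1.04 (SE, adjusted p = 0.603) with skeletal muscle marker level as a covariate. By limma on the authors' normalized values it was 0.19, so the direction for Ogn changed with the tumours included and with the model.

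Vcan (Entrez Gene 13003, chromosome 13, 89655309 to 89743027, minus strand) spread least of the 9 among KP tumours (1.47-fold). It was read at 1082, 1545, 1180 and 1591 CPM in KP 5, 6, 7 and 8, at 1629, 1264 and 1678 CPM in KPH2 2, 3 and 4, and at 558 CPM in KPH2 1, below every other tumour. The means, 1350 ± 256 CPM for KP (SD, n = 4) and 1524 ± 226 CPM for KPH2 (SD, n = 3), gave a log2 fold change of 0.17 ± 0.20 (SE, edgeR adjusted p = 0.713). It stayed between 0.09 and 0.29 when each of the 7 tumours was left out, and with KPH2 1 the direction turned, at −0.07 (edgeR adjusted p = 0.943).

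**Figure D2:**
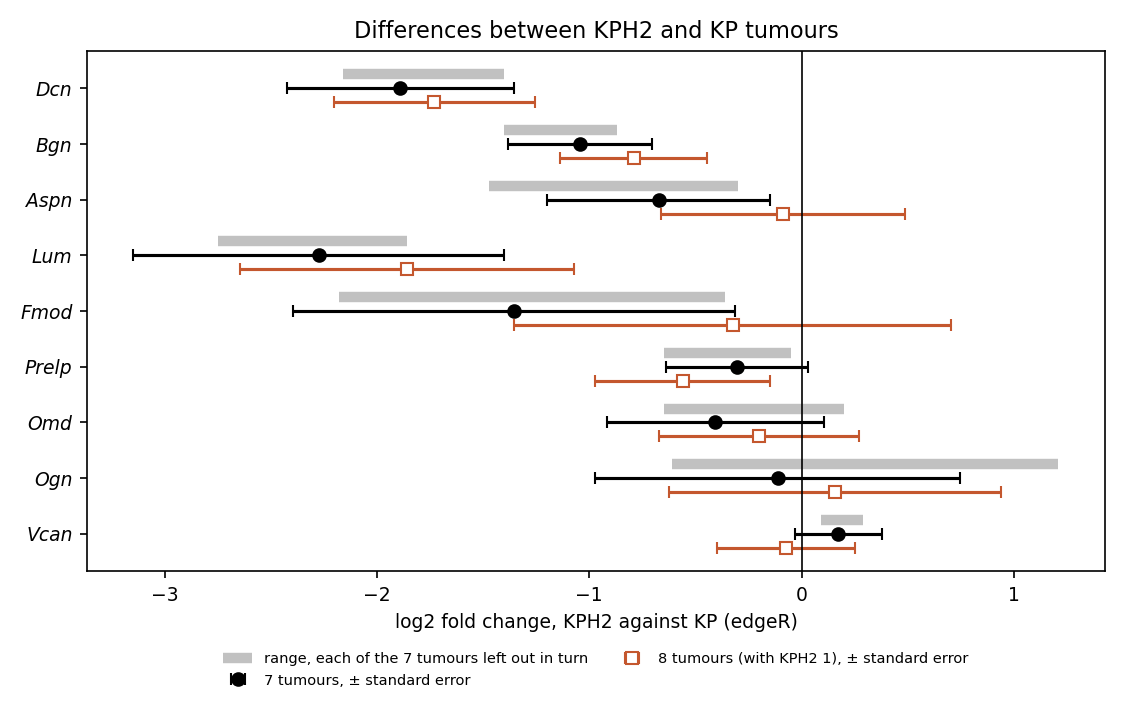
Log2 fold change of KPH2 against KP for each proteoglycan gene by edgeR, with standard errors, over 7 tumours (circles) and all 8 (squares), and the range when each of the 7 tumours was left out (grey bars). Lum and Dcn lie farthest below 0 in both fits, at −2.27 and −1.89 over 7 tumours, while the grey bar of Ogn runs from −0.61 to 1.21.

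Most of these genes varied more among KP tumours than a typical gene did. The SD of log2 CPM over the 4 KP tumours had a median of 0.33 and a 90th percentile of 0.83 over all 14867 genes. Fmod (2.25), Lum (1.69), Ogn (1.53), Dcn (1.05) and Omd (0.88) all exceeded that 90th percentile. Aspn (0.57), Bgn (0.52) and Prelp (0.48) were above the median, and only Vcan (0.28) was below it.

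High values fell in different tumours for different genes, and chromosomal neighbours shared them in part. Dcn and Lum are neighbours on chromosome 10, and KP 6 and KP 8 were the highest tumours for both. Aspn, Omd and Ogn lie side by side on chromosome 13, and KP 5 and KPH2 1 were the highest tumours for all 3. Fmod, on chromosome 1, had the same leading tumours (KP 5 and KPH2 1), whereas Prelp, close to Fmod, was highest in KP 8 and lowest in KPH2 1. After centring each gene on its mean log2 CPM over the 8 tumours, the root mean square difference was 0.75 between Dcn and Lum, 0.62 between Aspn and Omd and 0.72 between Omd and Ogn. Other neighbours were farther apart, at 0.97 for Aspn and Ogn and 2.0 for Fmod and Prelp. The difference was smaller for some pairs on different chromosomes, at 0.60 for Bgn and Aspn and 0.53 for Prelp and Vcan. The cartilage and tendon markers did not share one pattern. Comp and Tnmd, chosen here after their values were seen, were also highest in KP 5 and KPH2 1. Comp stood at 17.5 and 25.5 CPM there against at most 7.71 CPM elsewhere, and Tnmd at 6.54 and 20.6 CPM against at most 4.45 CPM. The tendon factor gene Scx was likewise highest in KPH2 1 (32.4 CPM), but at 7.8 CPM in KP 5 it lay below KPH2 2 to 4. Thbs4 was highest in KPH2 1 (511 CPM), with KP 7 (292 CPM) above KP 5 (278 CPM). Mkx was lowest in KP 5, at 3.19 CPM, and read 3.76 CPM in KPH2 1 against 10.2 CPM in KP 6, and Sox9 was lowest in KPH2 1 at 54.8 CPM. The summed tendon list was highest in KPH2 1 at 568 CPM, against 75.2 to 307 CPM in the other 7. Its part in the values of Aspn, Omd, Ogn and Fmod was not tested.

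**Figure D3:**
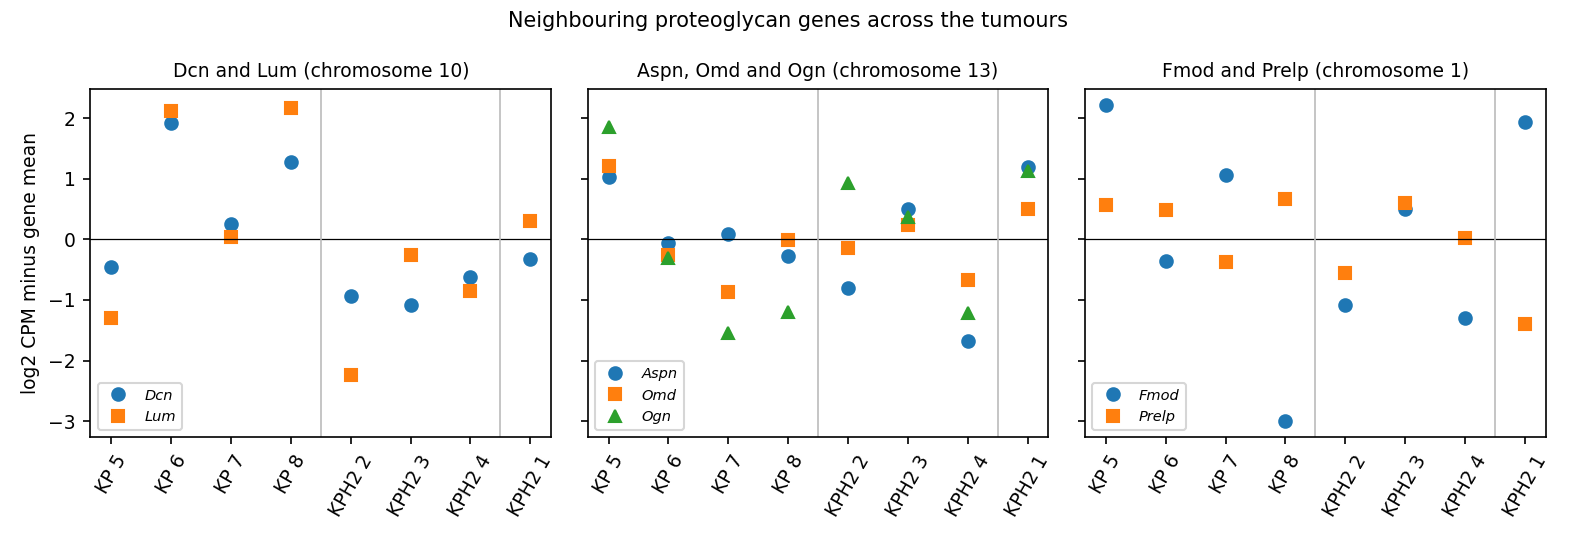
Log2 CPM minus the gene mean over 8 tumours (vertical axis) in each tumour for neighbouring proteoglycan genes on chromosomes 10, 13 and 1, with grey lines between the groups and before KPH2 1. Dcn and Lum peak in KP 6 and KP 8, Aspn, Omd and Ogn in KP 5 and KPH2 1, and Fmod and Prelp do not share their high tumours.

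The summed fibroblast and skeletal muscle markers of KPH2 2 to 4 lay outside the KP range. The sums were given no test, and few single markers passed. The fibroblast list summed to 2111 to 2537 CPM in KP, 845 to 1478 CPM in KPH2 2 to 4 and 1267 CPM in KPH2 1, and 8 of its 9 tested genes had a fold change below 0 (median −0.71). Pdgfra, a receptor of fibroblasts and mesenchymal tumour cells, passed the test, from 997 CPM in KP to 245 CPM in KPH2 2 to 4 (log2 fold change −2.02 ± 0.27 SE, edgeR adjusted p = 0.0183), and read 639 CPM in KPH2 1. It did not pass over all 8 tumours (−1.535, edgeR adjusted p = 0.16). With a tumour left out its adjusted p reached 0.0719. Pdgfra took 721 to 1494 CPM of the fibroblast sum in KP and 224 to 274 CPM in KPH2 2 to 4. Without Pdgfra the fibroblast sum of KPH2 3 lay above those of KP 5 and KP 6. The summed skeletal muscle list was higher in KPH2 2 to 4, with 1799 to 3283 CPM in KP, 4227 to 19090 CPM in KPH2 2 to 4 and 1482 CPM in KPH2 1. All 19 muscle genes were above 0 (median 2.21), of which Eno3 and Neb passed, and KPH2 1 lay below every KP tumour in the sum. Neither Eno3 nor Neb passed over all 8 tumours (edgeR adjusted p = 0.159 and 0.243). Macrophage markers summed to 1352 to 2368 CPM in KP and 861 to 1462 CPM in KPH2 2 to 4, which overlap, with 1039 CPM in KPH2 1, and all 7 were below 0 with none passing. With the mean muscle marker level as a covariate, the log2 fold changes over 7 tumours were −1.04 ± 0.945 (SE) for Dcn (adjusted p = 0.884), −1.34 ± 0.629 for Bgn (adjusted p = 0.65) and −2.20 ± 1.66 for Lum (adjusted p = 0.839) by edgeR. Of all tested genes, 3 passed the threshold. That level (mean log2 CPM) ran from 4.42 to 5.75 in KP and from 5.78 to 8.12 in KPH2 2 to 4. The groups did not overlap in it, so genotype and covariate are hard to separate in this fit. The covariate gave larger negative values for 5 further genes, none of which passed. They were −3.03 ± 1.65 (SE) for Fmod, −2.50 ± 0.57 for Aspn, −2.39 ± 1.04 for Ogn, −1.72 ± 0.61 for Omd and −0.80 ± 0.53 for Prelp, with edgeR adjusted p from 0.282 (Aspn) to 0.805 (Prelp). Vcan was at 0.44 ± 0.35 (adjusted p = 0.853). The part of the fibroblast and macrophage markers in these differences was not tested.

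To compare genes with one another, levels were divided by exon length (CPM per kb of the union of exons). Bgn had the highest median over the 8 tumours at 189 CPM per kb, followed by Vcan at 97.1, Dcn at 64.5, Aspn at 61.9, Lum at 36.6 and Ogn at 30.2. Prelp (4.68), Fmod (2.67) and Omd (2.02) were the 3 lowest in every tumour. Within the upper 6 the order changed between tumours: Bgn ranked 1 in 4 of 8 and never below 3, while Vcan ranked from 1 to 6 and Dcn from 1 to 5, so neighbours from Vcan to Ogn do not differ beyond their spread. The lengths matter for this order. With exons of the RefSeq counterpart transcripts, a choice made after seeing the data, Bgn stood at 476 CPM per kb and ranked 1 in 6 tumours, and Dcn (194) passed Vcan (105).

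As a share of the summed CPM per kb of the 9 genes, Vcan made up 11%, 11.7%, 12.9% and 15.6% in KP 5, 6, 7 and 8. It made up 32.3%, 18.8% and 35.6% in KPH2 2, 3 and 4, above every KP tumour, but 6.66% in KPH2 1. The shares of Bgn overlapped, from 20.2% to 51.5% in KP and 25.2% to 36.5% in KPH2 2 to 4. With the RefSeq exon lengths the Vcan shares were lower, at 6.02% to 8.88% in KP, 11.6% to 21.2% in KPH2 2 to 4 and 4.02% in KPH2 1. Those of Bgn were then 26.7% to 61.4% in KP and 38.2% to 52.8% in KPH2 2 to 4. The ratio of Vcan to Dcn counts, which does not depend on length when tumours are compared, was 3.02, 2.01 and 1.34 in KP 5, 7 and 8, under 1 in KP 6, and 6.3, 5.47 and 5.25 in KPH2 2, 3 and 4. KPH2 1, at 1.42, fell among the KP tumours. This ratio was picked out after the values were seen and was given no test.

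**Figure D4:**
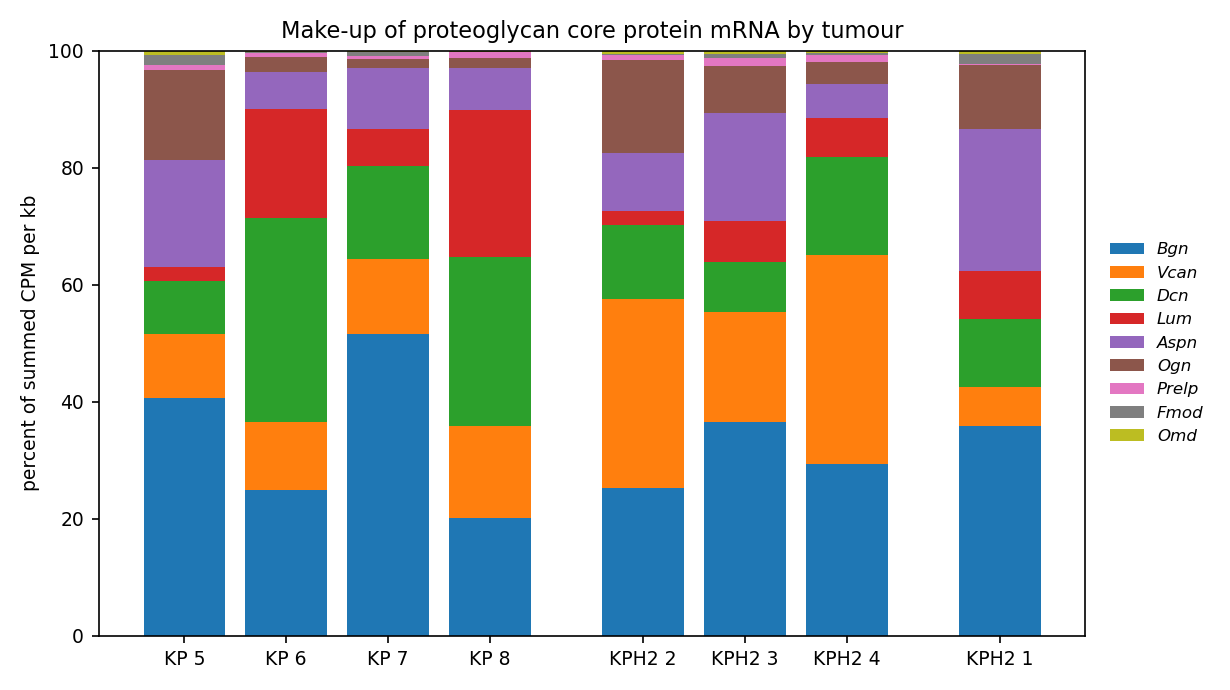
Share of each gene in the summed CPM per kb of the 9 proteoglycan genes (percent, vertical axis), 1 stacked bar per tumour. The Vcan segment spans 11% to 15.6% in KP tumours and 18.8% to 35.6% in KPH2 2 to 4, and is smallest in KPH2 1 at 6.66%.

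The genes whose pattern over the 8 tumours lay nearest to each proteoglycan gene were found among 10126 genes with a mean of at least 10 CPM, by the same root mean square difference of centred log2 CPM. Bgn was nearest to Tbc1d2b (0.17) and Bicc1 (0.22), Vcan to Mapkapk3 (0.17) and Fnbp1l (0.18), Omd to Evc (0.21) and Abcd2 (0.22), and Prelp to Igf1 (0.27) and Arhgap15 (0.28). Aspn was nearest to Prdm16 (0.31) and Zfp521 (0.33) and Dcn to Cysltr1 and Slfn10-ps (0.44 each). The most variable genes had no close match, the nearest being Prg4 (0.46) and Adam33 (0.71) for Fmod, Nrk (0.59) and Fras1 (0.64) for Ogn, and Slit2 (0.68) and BC055004 (0.71) for Lum. Prg4 encodes lubricin, the joint and tendon lubricant, and ran from 3.92 CPM in KP 8 to 74.2 CPM in KP 5, with 60.4 CPM in KPH2 1.

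Genes that build, cut or bind proteoglycans were taken as 7 lists of 87 genes, of which 79 were tested. None passed the test in the higher direction and 3 passed in the lower, 3.8% of those tested. Of all genes, 1.96% passed in either direction and 0.72% in the lower one. With KPH2 1 included none of the 79 passed. The 3 were Tnfaip6, Xylt1 and Chst1, and in each of them all 4 KPH2 tumours, KPH2 1 with them, lay below all KP tumours, as held in either direction for 8.15% of the genes tested over 8 tumours.

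Tnfaip6 encodes TSG-6, a hyaluronan-binding protein that links heavy chains to hyaluronan, the polymer versican binds. It was read at 13.1, 37.4, 23.4 and 28.5 CPM in KP 5, 6, 7 and 8, at 5.67, 3 and 5.52 CPM in KPH2 2, 3 and 4, and at 12.6 CPM in KPH2 1. The log2 fold change was −2.43 ± 0.40 (SE, edgeR adjusted p = 0.0293). Xylt1 encodes a xylosyltransferase that adds the first sugar of chondroitin, dermatan and heparan sulfate chains to the core proteins. It fell from 34.4, 51.4, 60.5 and 41.3 CPM in KP 5, 6, 7 and 8 to 18.5, 16.2 and 22.1 CPM in KPH2 2, 3 and 4 (log2 fold change −1.31 ± 0.23 SE, edgeR adjusted p = 0.0343), with 29.3 CPM in KPH2 1. Chst1 encodes the sulfotransferase that sulfates galactose in keratan sulfate, the chain type of lumican and fibromodulin. It was tightly grouped, at 14.1, 14, 15.4 and 12.8 CPM in KP 5, 6, 7 and 8, at 7.56, 6 and 6.99 CPM in KPH2 2, 3 and 4 and at 5.75 CPM in KPH2 1 (log2 fold change −1.04 ± 0.19 SE, edgeR adjusted p = 0.0401). All 3 calls held by DESeq2 (adjusted p = 3.81e-07 for Tnfaip6, 7.14e-05 for Xylt1 and 0.000683 for Chst1). They also held by limma on the authors' normalized values (adjusted p = 0.0269, 0.0324 and 0.036 in the same order). In edgeR they held with DESeq2 or upper-quartile scaling, with no filter and with a mean count of at least 50. Of 15 alternative settings, 7 called Tnfaip6, 7 Xylt1 and 6 Chst1. All 3 calls were lost over all 8 tumours, where Tnfaip6 was at −1.92 (edgeR adjusted p = 0.151), Xylt1 at −1.12 (0.123) and Chst1 at −1.10 (0.1). With the muscle marker covariate they were at −1.57, −0.68 and −0.90 (edgeR adjusted p = 0.555, 0.621 and 0.55). Leaving out KP 6, KP 7, KP 8, KPH2 2, KPH2 3 or KPH2 4 also ended each of the 3 calls, with adjusted p between 0.0577 and 0.127, and leaving out KP 5 ended that of Chst1 (0.0572). With each tumour left out in turn the log2 fold changes ran from −2.64 to −2.19 for Tnfaip6, from −1.43 to −1.16 for Xylt1 and from −1.12 to −0.95 for Chst1.

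The rest of the lists did not pass by edgeR. DESeq2 called 10 list genes, beside 7.2% of all the genes it tested. Besides the 3 above they were Podn, Tnxb, Dpt, Dse, Igf1r, Csgalnact2 and B4galt1. Their DESeq2 adjusted p ran from 0.000345 (Podn) to 0.0467 (B4galt1), with Dpt at 0.00323 and Igf1r at 0.0293. Igf1r was higher in KPH2 and the others lower. Of 7 tested other small leucine-rich proteoglycans 2 were above 0 and 5 below (median −0.25), from Podn at −2.14 (edgeR adjusted p = 0.0698) to Podnl1 at 0.60 (0.507). Of 10 genes for hyaluronan, link proteins and other lecticans 6 were above 0 and 4 below (median 0.09), with the hyaluronan-degrading gene Cemip, listed as 9930013L23Rik, at 1.11 (0.189). Chondroitin and dermatan sulfate enzymes were below 0 in 16 of 22 (median −0.27), with the sulfotransferase gene Chst15 above at 1.17 (0.241). Of 5 keratan sulfate enzymes 4 were below 0 (median −0.60) and B4galt4 above at 0.44 (0.435). Proteases that process the cores were below 0 in 7 of 9 (median −0.40), with the versican-cleaving protease Adamts9 at −0.69 (0.286) and Bmp1, which trims biglycan, at 0.28 (0.521). Receptors and bound growth factors were above 0 in 7 of 12 (median 0.19), with Igf1r at 0.48 (0.118) and Tlr4 at −0.51 (0.168). Collagens and fibre proteins were below 0 in 11 of 14 (median −0.52). Dpt, a partner of decorin that is also in the fibroblast list, was at −1.73 (0.115) and the fibril-associated collagen Col14a1 at 0.62 (0.461).

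**Figure D5:**
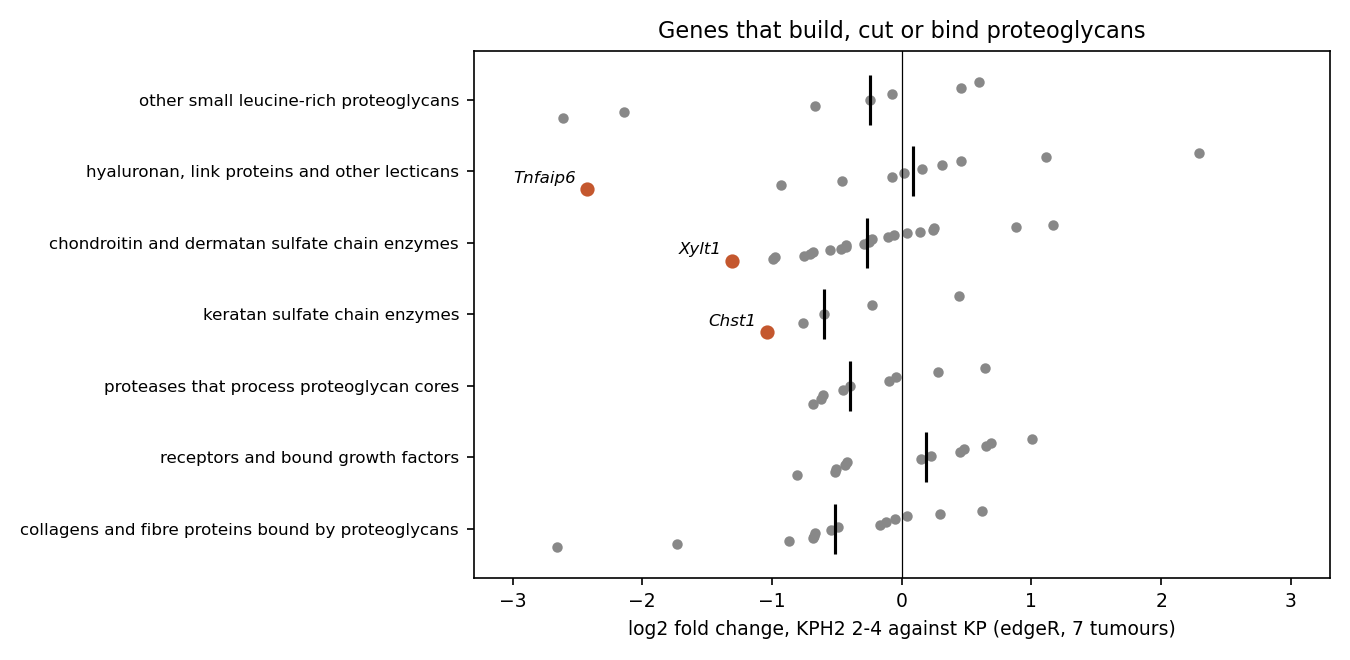
Log2 fold change of KPH2 2 to 4 against KP (edgeR, 7 tumours) for each tested gene of the 7 lists, with black bars at the list medians and genes past the adjusted p in orange. Tnfaip6 (−2.43), Xylt1 (−1.31) and Chst1 (−1.04) are the only orange points, all below 0, and list medians run from −0.60 to 0.19.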

How the data were processed

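RNA from 8 formalin-fixed UPS tumours was sequenced from stranded, ribosomal RNA-depleted libraries. The authors deposited raw counts per gene, made with STAR 2.4 on GRCm38 and HTSeq 0.6.1 with unique alignments against RefSeq, per the submitters' processing notes and the study's methods. The authors also deposited log2 values from the rlog transformation of DESeq2 1.6 in a table of 7 tumours and one of 8, which scale libraries by size factors and shrink low counts. All per-sample columns were mapped to a tumour, and the rlog values of 8 were not used here. The labels number the tumours without stating separate mice, so p-values measure only the spread between these samples. RNA fixed in formalin is fragmented, and a count per gene covers the whole gene, not only a deleted exon.

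Counts were tested in R 4.3.3 with edgeR 4.0.16 (TMM, filterByExpr with a minimum count of 10 and a minimum total of 15, robust quasi-likelihood test, no covariates), p-values adjusted by the Benjamini-Hochberg method across every tested gene and a threshold of 0.05. The biological coefficient of variation was 0.313 over 7 tumours and 0.347 over 8. CPM used the TMM library sizes of the 8 tumours. For the distances between patterns, log2 CPM had a prior count of 2. Results were recomputed with all 8 tumours, with size factors from DESeq2 or the upper quartile, with no filter or a mean count of at least 50, DESeq2 1.42.0, limma 3.58.1 on the rlog values, the muscle marker score as a covariate, each tumour left out, and other gene lengths. The RefSeq exon lengths and the recomputation of the list counts, the called list genes and Epas1 under these settings were added after seeing the data.

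The genes and lists were chosen with earlier results of these data known. Named are the 9 genes, Epas1, in each list every gene past the threshold and otherwise the gene with the smallest p in each direction, and for each of the 9 the 2 genes nearest in pattern. Further marker genes, and the list genes called by DESeq2 but not by edgeR, were named after their values were seen. Gene positions and promoters came from RefSeq (GRCm38.p6) and strands and exon lengths from GENCODE vM21. Protein sequences were not analysed here. An allele shared by both groups and a marker gene are not reported here.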

Additional observations from a re-analysis of the deposited data

Results flagged for a closer look

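Of 20 groups of 4 tumours examined for the 9 proteoglycan genes and Epas1, 2 held a tumour far from the others on the CPM scale and 1 of them also on the log2 scale. Chance gives about 1 in 20. Epas1 was 59.2 CPM in KP 5 against 83.2 to 86.9 CPM in the other KP tumours, a gap of 0.867 of the group's range in CPM and 0.887 in log2 CPM. Ogn was 269 CPM in KP 5 against 25.4 to 59.7 CPM in the other KP tumours, a gap of 0.859 of the range in CPM but 0.638 in log2 CPM, which is within the limit.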

How the results depend on the processing

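No paired analysis was possible because the KP tumours are numbered 5 to 8 and the KPH2 tumours 1 to 4, so the groups share no replicate number. The number of genes past an adjusted p of 0.05 was 292 by edgeR over 7 tumours, 1 over all 8, 3 with the muscle score as a covariate, 1175 by DESeq2, and 55 to 349 when each tumour was left out. Of the 9 proteoglycan genes 2 were called by DESeq2 (Dcn at −1.88 and Bgn at −1.04), and 0 to 1 when a tumour was left out, the 1 being Dcn without KP 5 (−2.16). Of the 79 tested list genes edgeR called 3, against 0 over all 8 tumours and 0 with the muscle covariate. It called 0 to 2 of them when a tumour was left out. DESeq2 called 10, beside 7.2% of all the genes it tested. Of 135 fold changes of the 9 genes over 15 alternatives, 126 kept their direction and side of the threshold and 3 became significant in the same direction, and 6 turned in sign. When each of the 7 tumours was left out, Omd ran from −0.65 to 0.20 and Ogn from −0.61 to 1.21. The 6 that turned were Ogn (0.16) and Vcan (−0.07) over all 8 tumours, Omd (0.20) and Ogn (1.21) without KP 5, Ogn (0.30) without KPH2 4 and Ogn (0.19) by limma on rlog values. Bgn had the highest level per kb in 4 tumours with the union of exons and in 8 with the longest transcript. The lower call counts without a tumour come with fewer samples; otherwise the cause was not tested. Fmod and Omd rest on few reads, and 3 to 4 tumours a group limit what could pass.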
